A study of Mus musculus with 2 samples.

Results

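The CXC chemokines considered here were the 7 ligands Cxcl1, Cxcl2, Cxcl9, Cxcl10, Cxcl13, Cxcl14 and Cxcl16, chosen by their levels in these same libraries. Of these 7 genes, 6 had a row in the 2 deposited matrices, which together listed 19537 genes, and Cxcl1 had a row in neither. The cells were CD11b+CD45int microglia sorted from mouse brain, of PARK7/DJ-1 KO animals or wildtype littermates of a line backcrossed to C57BL/6NCrl, aged 3 to 4 months and taken 24 h after 4 ug/g lipopolysaccharide (LPS) had been given intraperitoneally. LPS is part of the outer membrane of Gram-negative bacteria and provokes inflammation throughout the body. The KO carries a gene trap in Park7 in every cell of the body, and both genotypes received LPS, so that no uninjected mouse entered the comparison. Each genotype was 1 Drop-seq library made from 2 mice, 1 female and 1 male. In Drop-seq a bead in each droplet captures transcripts at their 3' end, and unique molecular identifiers (UMIs) mark single captured molecules. A cell was a barcode with at least 500 UMIs and at least 100 genes, which gave 320 KO LPS cells and 1427 WT LPS cells.

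CXC chemokines are small secreted proteins that bind G protein-coupled receptors and guide leukocytes along a gradient. In microglia exposed to LPS, toll-like receptor signalling switches on several of these genes through NF-kB, and secreted interferon adds others through STAT proteins. Cxcl1 and Cxcl2 attract neutrophils through CXCR2, Cxcl9 and Cxcl10 attract activated T lymphocytes through CXCR3, and Cxcl13 attracts B lymphocytes through CXCR5. Cxcl16 is made as a membrane protein, binds CXCR6 and is shed by the proteases ADAM10 and ADAM17. Cxcl14 is a ligand expressed in many resting tissues.

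The sequence upstream of the start was taken for the ligands whose levels are compared below, to show which inducible elements the letters hold. RefSeq promoters (GRCm38.p6) were matched by symbol for 6 of the 7 genes, Cxcl16 having none. Each line gives the 250 bases before the start, 5' to 3' on the strand of the gene, with motif matches in capitals. The motifs searched on both strands were the NF-kB consensus, an interferon-type element (GAAA, any 2 bases, GAAA) and the box TATAAA. They were present in 3.90%, 2.98% and 12.4% of all 32851 RefSeq promoters cut to the same length.
Cxcl2, chr5:90903649-90903898, plus strand: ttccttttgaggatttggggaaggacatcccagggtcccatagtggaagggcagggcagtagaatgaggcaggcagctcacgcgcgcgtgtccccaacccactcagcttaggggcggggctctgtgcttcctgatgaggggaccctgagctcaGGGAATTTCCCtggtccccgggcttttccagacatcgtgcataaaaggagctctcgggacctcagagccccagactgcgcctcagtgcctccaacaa
Cxcl10, chr5:92348890-92349139, minus strand: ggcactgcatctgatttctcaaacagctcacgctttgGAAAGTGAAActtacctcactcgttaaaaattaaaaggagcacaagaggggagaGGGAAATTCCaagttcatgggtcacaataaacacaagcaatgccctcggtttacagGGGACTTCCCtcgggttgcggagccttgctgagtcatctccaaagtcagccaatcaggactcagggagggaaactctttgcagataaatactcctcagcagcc
Cxcl13, chr5:95956689-95956938, plus strand: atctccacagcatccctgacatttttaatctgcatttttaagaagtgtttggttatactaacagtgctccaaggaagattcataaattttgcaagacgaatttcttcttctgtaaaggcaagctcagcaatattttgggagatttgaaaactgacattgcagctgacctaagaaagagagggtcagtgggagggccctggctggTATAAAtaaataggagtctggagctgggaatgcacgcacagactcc

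Cxcl10 held 2 NF-kB matches, from 159 and from 103 bases before the start, and 1 match to the interferon-type element from 213 bases before it. Cxcl2 held 1 NF-kB site that reads on both strands with a shift of 1 base, from 97 bases before the start, and Cxcl1 held the same letters from 71 bases before its start. Cxcl13 held a TATAAA box from 46 bases before the start and neither of the other motifs in this window. The interferon-type element was also present in Cxcl14, from 172 bases before its start, and TATAAA in Cxcl9, from 195 bases before its start. These are matches of letters, and nothing here measured binding. Cxcl1, Cxcl2, Cxcl9, Cxcl10 and Cxcl13 lie on chromosome 5 and Cxcl14 lies on chromosome 13.

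The libraries differed in size. The 320 KO LPS cells held 381305 UMIs and the 1427 WT LPS cells 1989011, with medians of 963.5 and 1065 UMIs per cell. Park7 had 323 UMIs in WT LPS, 162 CPM (UMIs per 1e6 UMIs of the cells of a library), and 1 UMI, 2.62 CPM, in KO LPS, which is the direction of the labels. All 8 microglial markers were detected in both libraries and summed to 26976 and 18028 CPM. Of 7 neutrophil markers 6 had a row, with 0 UMIs in KO LPS and 136 UMIs, 68.4 CPM, in WT LPS. Of the 136 UMIs, 81 were S100a8 and 45 S100a9, both named after their values were seen. Their top cells held 24 and 23 of these. Both were higher in barcodes of at most 100 UMIs, at 82.3 and 114 per 1e6 UMIs, than in the cells, at 40.7 and 22.6 CPM. Choroid plexus markers had 808 UMIs in KO LPS, of which 646 were Ttr UMIs of 1 cell, and 28 in WT LPS. No cell barcode was shared by the libraries. With 1 library per genotype there is no replicate check, no test was made, and genotype cannot be told apart from library. All intervals are 95% and cover counting error only. They take molecules as independent, so that they are too narrow for genes whose UMIs lie in few cells. Since UMIs are counted once per molecule at the 3' end, levels were not divided by transcript length.

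Among the 6 ligands, 4 had at least 20 UMIs over both libraries, and all 4 were at least 2-fold lower in KO LPS. Of all 9085 genes with at least 20 UMIs, 15.3% were at least 2-fold lower and 13.5% at least 2-fold higher. The choice of the ligands used this contrast, so nothing is read from their count. Cxcl2, Cxcl9, Cxcl10 and Cxcl13 had missing values throughout the KO LPS matrix, which were read as 0. A count of 0 in the 320 cells was taken to allow 3 counts, that is a level of up to 7.87 CPM and a share of up to 0.938% of cells, and "at least" is said against this level. That bound leaves out the counting error of WT LPS, so the upper end of the exact interval of the ratio, which includes it, is given beside it.

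Cxcl16 was the most abundant ligand. WT LPS cells held 427 UMIs, 214.7 CPM (195 to 236), against 6 UMIs, 15.7 CPM (5.77 to 34.2), of KO LPS cells. The level in KO LPS was 13.6-fold lower, a ratio of 0.0733 (0.0267 to 0.161). Cxcl16 was found in 297 WT LPS cells (20.8%, 18.7 to 23.0) and in 6 KO LPS cells (1.88%, 0.691 to 4.04), each of the 6 with a single UMI. At the WT LPS share, 66.6 of the 320 KO LPS cells would have held a Cxcl16 UMI. The intervals did not overlap, whether UMIs or cells were counted. The 6 KO LPS cells held 702 to 1341 UMIs in all.

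Cxcl10 followed with 160 UMIs in 52 WT LPS cells, 80.4 CPM (68.5 to 93.9), and 0 UMIs in KO LPS. The level was at least 10.2-fold lower in KO LPS against 3 counts, and the interval of the ratio, KO LPS divided by WT LPS, reached up to 0.122. Without the 3 cells of WT LPS with most Cxcl10 UMIs the bound was 6.28-fold. At the WT LPS share of 3.64% (2.73 to 4.75), 11.7 KO LPS cells would have held a Cxcl10 UMI, and 0 of 320 allows up to 0.938%, below the WT LPS interval. At equal depth 23 WT LPS cells and 0 KO LPS cells were positive. The WT LPS interval, given below, then started at 1.02%, close to this limit and under the exact upper limit of 1.15%. Such an overlap does not by itself decide whether the shares of positive cells differed, and this was not tested.

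Cxcl13 had 103 UMIs in 17 WT LPS cells, 51.8 CPM (42.3 to 62.8). With 0 UMIs, its level in KO LPS was at least 6.58-fold lower against 3 counts, with a ratio of up to 0.190. This bound rested on very few cells. Without the 3 cells of WT LPS with most Cxcl13 UMIs it was 1.49-fold, and among cells with Xist and no Y-linked UMI, which come mostly from the female mice, it was 1.18-fold. In the latter cells the exact upper limit of KO LPS, 14.2 CPM, was above the WT LPS level of 13.6 CPM, so that no lower level was shown. Counted as cells, the WT LPS share was 1.19% (0.695 to 1.90) and overlapped with what 0 of 320 allows (0.938%). At the WT LPS share only 3.81 KO LPS cells would have held a Cxcl13 UMI.

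Cxcl2 had 60 UMIs in 13 WT LPS cells, 30.2 CPM (23.0 to 38.8). KO LPS again had 0 UMIs, so that its level was at least 3.83-fold lower against 3 counts, with a ratio of up to 0.331. Without the 3 cells with most Cxcl2 UMIs the bound was 1.55-fold. The WT LPS share of 0.911% (0.486 to 1.55) overlapped with what 0 KO LPS cells allow, and 2.92 KO LPS cells would have been found at the same share. For Cxcl13 and Cxcl2 a difference in the number of positive cells was thus not detectable with 320 KO LPS cells.

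Cxcl9 had 8 UMIs in 7 WT LPS cells, 4.02 CPM (1.74 to 7.93), below what a count of 0 allows in KO LPS, and no difference was detectable. A pair of the Cxcl9-positive barcodes, with 2 UMIs and 1 UMI, differed at 1 base, and whether they stem from 1 cell was not tested. Cxcl14 had 10 UMIs in 10 WT LPS cells, 5.03 CPM (2.41 to 9.25), and 3 UMIs in 1 KO LPS cell, 7.87 CPM (1.62 to 23.0). Its ratio was 1.56 (0.277 to 6.08). With a prior count of 0.5 the log2 ratio was 0.80, and it turned to -0.28 as the mean of single-cell CPM, to -1.53 in cells with Xist and to -1.49 without the 3 cells with most UMIs. In the last 2 settings KO LPS had 0 UMIs and the value depends on the prior count, so that no direction is read for Cxcl14. The single Cxcl14-positive KO LPS cell had 1892 UMIs, of which 23 were of Slc1a2, an astrocytic glutamate transporter named after its values were seen. That cell held 23 of the 31 Slc1a2 UMIs of KO LPS, and the part of another cell type in its Cxcl14 was not tested.

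**Figure D1:**
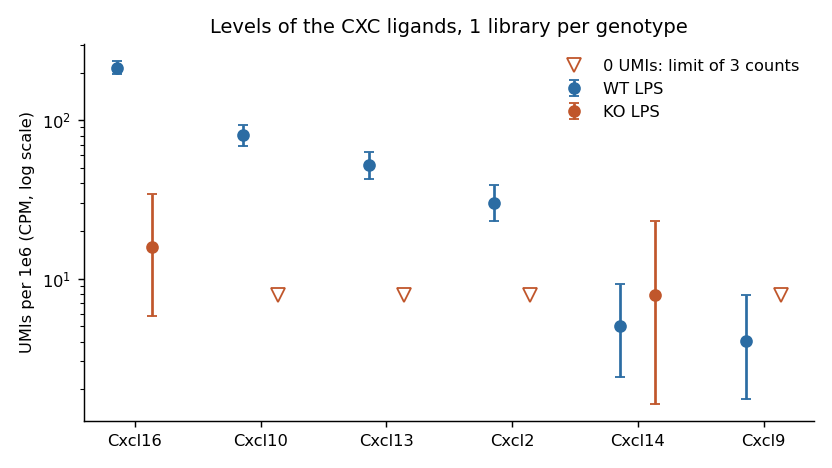
Level of each ligand in WT LPS (blue) and KO LPS (orange), in UMIs per 1e6 on a log scale, with exact Poisson 95% intervals. Open triangles give the level of 3 counts, 7.87 CPM, where KO LPS had 0 UMIs, below the WT LPS intervals of Cxcl10, Cxcl13 and Cxcl2.

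The ligands differed in how their WT LPS molecules were spread over cells. Cxcl13 UMIs were held by very few cells. The cell with most had 51 of the 103 UMIs (49.5%), the next had 19, and the others with at least 3 UMIs had 9, 5, 4 and 4. The remaining 11 positive cells had 1 UMI each. For Cxcl2, the 3 cells with most had 12, 12 and 11 of 60 UMIs (58.3%), and 7 cells with at least 3 UMIs held 90.0%. For Cxcl10, the cells with most had 24, 20, 15, 13 and 11 UMIs. The first 3 of these held 36.9%, the 12 cells with at least 3 UMIs held 69.4%, and 31 of the 52 positive cells had 1 UMI. Cxcl16 was spread widely. No cell had more than 7 UMIs, the top 3 held 3.98%, and 84 cells were needed to reach 50% of its UMIs, against 5 cells for Cxcl10, 3 for Cxcl2 and 2 for Cxcl13.

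Such concentration was uncommon among genes. Of 6090 genes with at least 50 UMIs in WT LPS, 0.312% had at least 25% of their UMIs in 3 cells and 0.0821% had at least 50%. Cxcl13 and Cxcl2 were among the 5 genes past 50%, beside Gm17251, Terf2ip and Il12b, a subunit of interleukin-12. Cxcl10 was among the 19 genes past 25%, as were 3 of the 8 CC chemokines, Ccl3, Ccl4 and Ccl7. These genes, other than the ligands, were named after their values were seen. A count of 0 UMIs in KO LPS was itself found for 0.92% of the 6090 genes.

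**Figure D2:**
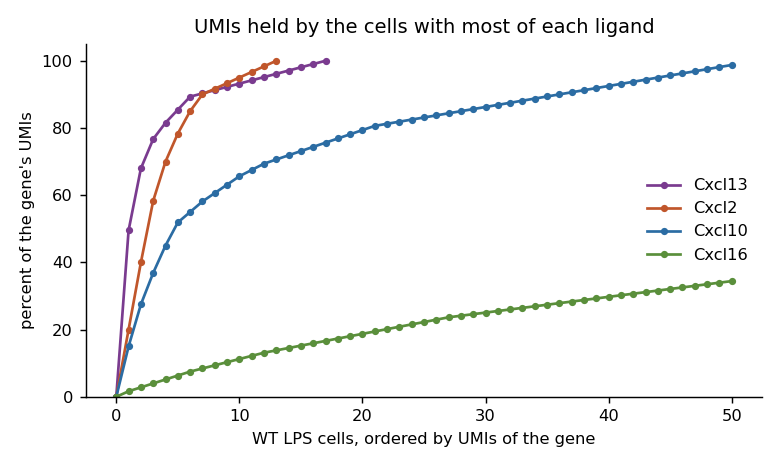
Percent of the UMIs of Cxcl13, Cxcl2, Cxcl10 and Cxcl16 in WT LPS held by the cells with most of each, against the number of cells taken in that order (50 at most). Cxcl13 reached 76.7% with 3 cells, and Cxcl16 3.98%.

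The share of positive cells was then compared at equal depth, with every cell thinned to 500 UMIs, which left out no cell. As background, the share expected in droplets that hold 500 UMIs of ambient RNA alone was computed from barcodes of at most 100 UMIs. The ambient shares of WT LPS rest on 36 UMIs of Cxcl16, 12 of Cxcl10, 13 of Cxcl13 and 4 of Cxcl2. Their own counting error is not given. No cell type that should lack the ligands was defined here. Cxcl16 was found in 122 WT LPS cells, 8.55% (7.15 to 10.1), against an ambient share of 5.54%, and in 3 KO LPS cells, 0.938% (0.194 to 2.72), with an ambient share of 0.502%. Cxcl10 was found in 23 cells, 1.61% (1.02 to 2.41), with an ambient share of 1.88%, and Cxcl13 in 12 cells, 0.841% (0.435 to 1.46), with 2.04%. Cxcl2 was found in 6 cells, 0.420% (0.154 to 0.913), with 0.631%. For Cxcl10, Cxcl13 and Cxcl2 the share with at least 1 UMI was thus not above that of droplets of ambient RNA alone. This is a high background, since WT LPS barcodes of at most 100 UMIs held a mean of 73.9 UMIs, not 500. Subtracting ambient UMIs of each library's own mean per cell left bounds of 10.3-fold for Cxcl10, 6.54-fold for Cxcl13 and 3.89-fold for Cxcl2. The source of the single UMIs was not tested, and a single UMI is not read as expression.

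A stricter count, of cells with at least 2 UMIs at equal depth, was added after seeing the data. Cxcl10 was found in 8 cells, 0.561% (0.242 to 1.10), with an ambient share of 0.0178%. Cxcl2 was found in 5 cells, 0.350% (0.114 to 0.816), with 0.00199%, and Cxcl13 in 3 cells, 0.210% (0.0434 to 0.613), with 0.0209%. Cxcl16 was found in 12 cells, 0.841% (0.435 to 1.46), with 0.156%. All 4 ligands lay above background, while Cxcl9 and Cxcl14 had 0 such cells, which allows up to 0.210%. KO LPS had 0 such cells for every ligand, which allows up to 0.938%, above all of these WT LPS shares, so that no difference between the libraries was detectable in this count.

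**Figure D3:**
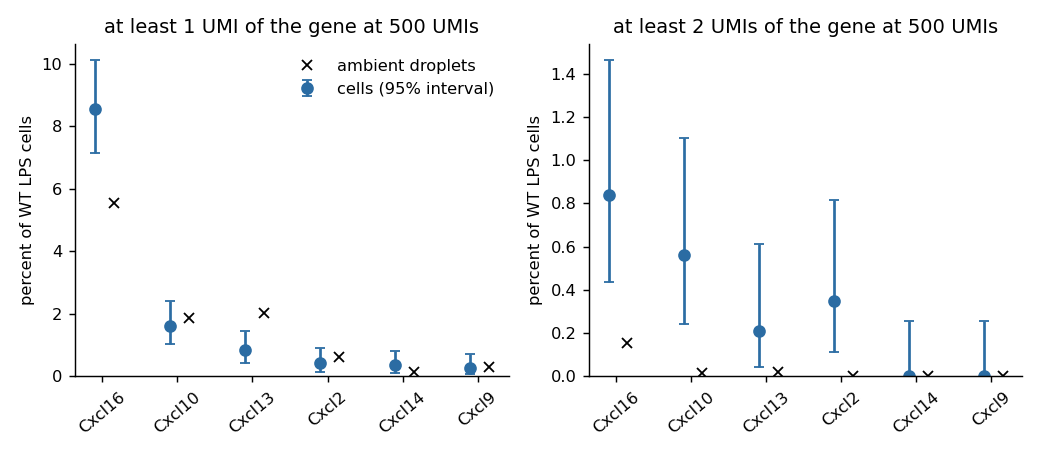
Percent of the 1427 WT LPS cells with at least 1 UMI (left) and at least 2 UMIs (right) of each ligand at 500 UMIs per cell, with exact 95% intervals (points), and the share in droplets of ambient RNA alone (crosses). On the right the points of Cxcl16, Cxcl10, Cxcl13 and Cxcl2 lie above their crosses.

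Cxcl13 and Cxcl10 were not found in the same WT LPS cells in the thinning to 500 UMIs. Of 12 Cxcl13-positive cells, 0 held a Cxcl10 UMI, which allows a share of up to 25%, and of 1415 Cxcl13-negative cells 23 did, 1.63% (1.03 to 2.43). The product of both shares gives 0.193 cells with both, so that 0 cells with both says nothing about whether the genes exclude each other. Without thinning, 1 of 17 Cxcl13-positive cells held Cxcl10, 5.88% (0.149 to 28.7), against 51 of 1410 negative cells, 3.62% (2.70 to 4.73). That cell had 1 Cxcl13 UMI and 4 Cxcl10 UMIs. It was also found in the thinning to 1000 UMIs, as 1 of 11, and the exact expectation under thinning to 500 UMIs was 0.370 shared cells. The 6 cells with at least 3 Cxcl13 UMIs and the 12 cells with at least 3 Cxcl10 UMIs were 18 different cells, and 0 of the 6 held any Cxcl10.

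**Figure D4:**
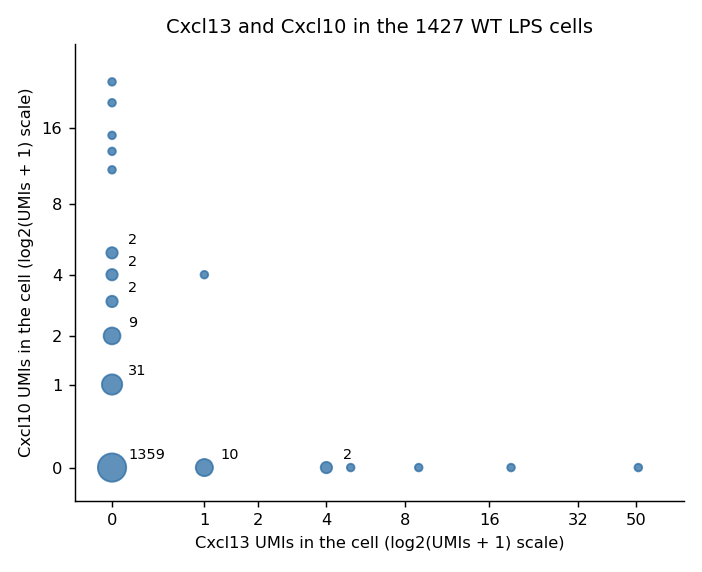
Cxcl13 against Cxcl10 UMIs in each WT LPS cell, both on a log2(UMIs + 1) scale, with the number of cells beside points that stand for more than 1. The cells with many UMIs lie along the axes, and the only cell off them has 1 Cxcl13 and 4 Cxcl10 UMIs.

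Cxcl16, found in far more cells, was found beside Cxcl10. At equal depth, 6 of 23 Cxcl10-positive cells held Cxcl16, 26.1% (10.2 to 48.4), against 8.26% (6.87 to 9.83) of the Cxcl10-negative cells, but only 8 of the 23 had at least 2 Cxcl10 UMIs. Without thinning, Cxcl16 was found in 27 of 52, 51.9% (37.6 to 66.0), against 19.6% (17.6 to 21.8), and in 9 of the 12 cells with at least 3 Cxcl10 UMIs. Unthinned values move with depth and are not read as overlap, here or for the pairs that follow: the 12 cells had a median of 2232.5 UMIs against 1065 over all WT LPS cells, and Cxcl16 was found in 12.6% of cells of 500 to 1000 UMIs and 39.4% of those of at least 2000. For Cxcl13, 0 of 12 positive cells held Cxcl16 at equal depth and 6 of 17 without thinning, 35.3% (14.2 to 61.7). Cxcl2 and Cxcl10 shared 1 cell at equal depth and 3 without thinning. Cxcl13 and Cxcl2 shared none at either depth.

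The cells with most Cxcl13, Cxcl10, Cxcl2 and Cxcl16 held microglial markers. The 6 cells with at least 3 Cxcl13 UMIs held 22 or more microglial marker UMIs each, 18608 CPM over the 6 against 18028 CPM over all WT LPS cells, and 0 UMIs of the 11 lists of other cell types, B lymphocytes included. The 12 cells with at least 3 Cxcl10 UMIs held 12 or more each, 18830 CPM over the 12, with 0 UMIs of monocyte, neutrophil and border macrophage markers and 1 to 3 UMIs in all of B lymphocyte, endothelial, astrocyte and oligodendrocyte markers each. The 7 cells with at least 3 Cxcl2 UMIs held 2 or more each, 15293 CPM over the 7, with 0 UMIs of the other 11 lists. At 517 UMIs, 1 of these 7 cells had 12 Cxcl2, 11 Il1b and 10 Ccl3 UMIs but 0 UMIs of Cx3cr1, a microglial receptor. The 27 cells with at least 3 Cxcl16 UMIs held 13 or more microglial marker UMIs each, 19242 CPM over the 27. Astrocyte markers had 23 UMIs in 13 of these cells, 203 CPM against 153 CPM over all WT LPS cells, and each other list had 0 to 3 UMIs, monocyte, neutrophil and border macrophage markers included. Over all WT LPS cells, 279 of the 305 astrocyte marker UMIs were of 1 gene, Slc1a3, named after its values were seen. It was found in 222 cells, 15.6%. Whether these UMIs mark RNA of astrocytes, and its part in the Cxcl16 of the 27 cells, was not tested.

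The state of the positive cells was described with fixed lists at equal depth, ligands left out. Cxcl10-positive cells held 4.14-fold (3.19 to 5.31) the type I interferon UMIs of negative cells, 2.91 against 0.703 per cell, 3.04-fold (2.47 to 3.72) the CC chemokine UMIs and 1.55-fold (1.33 to 1.80) the inflammatory UMIs. Of these 23 cells only 8 had at least 2 Cxcl10 UMIs, so that most of them held a single UMI, which is not read as expression. Rsad2, an antiviral enzyme, had 13 UMIs in 6 of the 23 positive cells and 16 UMIs in the 1404 negative cells. Ifit3, an interferon-induced antiviral gene, had 8 and 13 UMIs. These had the highest ratios of the list, whereas Bst2 and Ifitm3, its members with most UMIs, did not differ beyond counting error, at 1.501-fold (0.546 to 3.31) and 1.03-fold (0.280 to 2.68). Homeostatic microglial transcripts did not differ beyond counting error, at 0.875-fold (0.738 to 1.03). In the 12 cells with at least 3 Cxcl10 UMIs the interferon list was at 6.89-fold (5.18 to 9.005), the CC chemokines at 4.91-fold (3.89 to 6.13) and the inflammatory list at 1.70-fold (1.38 to 2.07). Rsad2, Ifit3, Bst2 and Ifitm3 were named after their values were seen.

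The 12 Cxcl13-positive cells at equal depth mostly held a single UMI, which is not read as expression, as only 3 had more than 1 UMI. Their interferon list was at 1.47-fold (0.781 to 2.53), and at 1.82-fold (0.784 to 3.5995) in the 6 cells with at least 3 Cxcl13 UMIs, neither beyond counting error. Their inflammatory list was 1.44-fold (1.15 to 1.78) that of negative cells, of which 36.0% came from 1 cell. With the 6 cells of at least 3 UMIs it was 1.30-fold (0.927 to 1.79), of which 79.5% came from 1 cell. CC chemokines were at 1.52-fold (0.996 to 2.21), and at 2.70-fold (1.73 to 4.03) in those 6 cells, where 45.8% came from 1 cell. Homeostatic transcripts were at 1.05-fold (0.843 to 1.29). The difference between the Cxcl13-positive and Cxcl10-positive cells was not tested. The 6 cells with most Cxcl13, in that order, held 17, 22, 8, 0, 8 and 0 UMIs of Ccl12, a monocyte attractant, and 0, 0, 17, 0, 1 and 0 of Saa3, an acute phase gene named after its values were seen.

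Cxcl2-positive cells, only 6 at equal depth, held 4.88-fold (4.11 to 5.76) the inflammatory UMIs and 5.23-fold (3.82 to 7.01) the CC chemokine UMIs of negative cells, with homeostatic transcripts at 0.598-fold (0.390 to 0.876) and the interferon list at 1.13-fold (0.366 to 2.64). A single cell gave 40.3% of the inflammatory and 37.0% of the CC chemokine UMIs. Il1b, the cytokine interleukin-1 beta, had 16 UMIs in 2 of these 6 cells and was at 39.5-fold. Of the 122 Cxcl16-positive cells only 12 had at least 2 UMIs. The share of 8.55% with at least 1 UMI stands against 5.54% in droplets of ambient RNA alone, a high background. The source of the single UMIs was not tested. In these 122 cells the inflammatory list was at 1.25-fold (1.16 to 1.35), CC chemokines at 1.70-fold (1.498 to 1.93) and the interferon list at 1.21-fold (0.980 to 1.48). In the 27 cells with at least 3 Cxcl16 UMIs these were at 2.05-fold (1.80 to 2.32), 2.19-fold (1.72 to 2.74) and 1.57-fold (1.05 to 2.26).

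**Figure D5:**
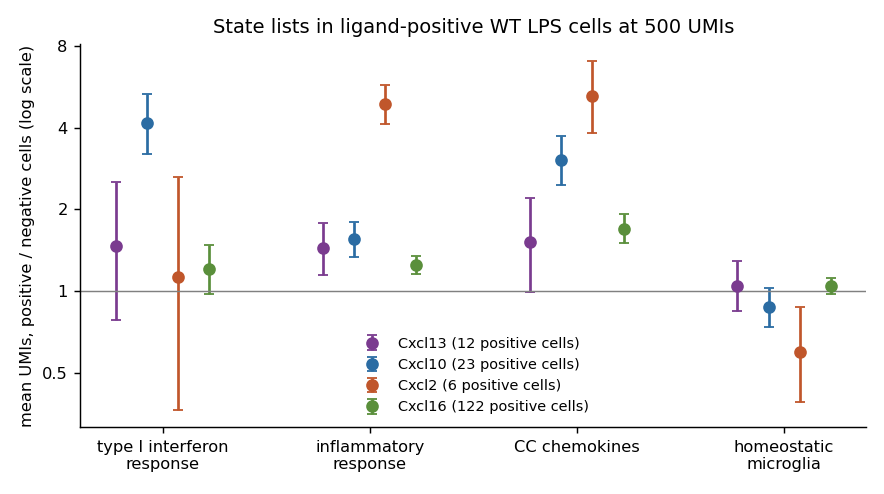
Mean UMIs of 4 gene lists in ligand-positive over ligand-negative WT LPS cells at 500 UMIs per cell, log scale, with 95% intervals of counting error and a grey line at 1. The interferon list reached 4.14 in Cxcl10-positive cells and the inflammatory list 4.88 in Cxcl2-positive cells.

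Only Cxcl16 had enough UMIs at equal depth (134) to look for genes with a like pattern over the 1427 cells. The 5 genes with the highest Pearson correlation of 1420 compared were Tmem167 (0.115), Gpr84 (0.114), Ctsb (0.111), Il1b (0.108) and Dynll1 (0.103), all weak, and the points share 1 library.

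Each library pooled a female and a male, and Xist and Y-linked UMIs separated part of the cells. In WT LPS, Cxcl10 was at 110 CPM (88.3 to 135) in the 565 cells with Xist and at 130 CPM (92.9 to 177) in the 195 cells with Y-linked UMIs. Cxcl16 was at 214 CPM (183 to 248) and 192 CPM (146 to 248). For these 2 ligands the intervals overlapped between cells of the female and the male. Cxcl2 was at 42.0 CPM (29.1 to 58.7) and 3.25 CPM (0.0823 to 18.1). Cxcl13 was at 13.6 CPM (6.78 to 24.3) and 6.51 CPM (0.788 to 23.5). Of its 103 UMIs, 90 lay in the 667 cells with neither or both kinds of UMI. In KO LPS, 200 cells had Xist and only 12 had Y-linked UMIs, so that little can be said of the male.

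The other CXC ligands and the receptors that had a row were scarce. Of 8 further CXC ligands, 3 had a row and none reached 20 UMIs. Cxcl12, the CXCR4 ligand, had 2 UMIs in WT LPS and 3 UMIs in 1 KO LPS cell, which also held 12 UMIs of Flt1, an endothelial receptor. Of 9 receptors, 6 had a row, and Cxcr2 had 5 WT LPS and 0 KO LPS UMIs, Cxcr5 0 and 1, Ackr4 1 and 0, and Cxcr3, Cxcr6 and Ackr3 0 in both. Of the proteases that shed or trim CXC ligands, Adam10 was at 451 CPM in WT LPS against 283 CPM in KO LPS, with a ratio of KO LPS over WT LPS of 0.627 (0.509 to 0.767). Adam17 was at 159 against 165 CPM, a ratio of 1.04 (0.778 to 1.36). Neither was past 2-fold, whereas their substrate Cxcl16 was 13.6-fold lower.

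The CC chemokines and the upstream pathways were counted beside these. Of 8 CC chemokines, 6 were at least 2-fold lower in KO LPS and 1 was at least 2-fold higher, with a median log2 ratio of -3.44. Over all genes with at least 20 UMIs, the shares were 15.3% lower and 13.5% higher and the median was 0.03, and the counts of the lists that follow stand beside the same shares. Ccl12 was at 2098 CPM in WT LPS against 15.7 CPM in KO LPS, with a ratio of 0.00750 (0.00275 to 0.0163). Ccl5, a T lymphocyte attractant, was at least 50.9-fold lower against 3 counts, with a ratio of up to 0.0242, and Ccl6 was 3.68-fold (2.65 to 5.08) higher. Of 6 genes that sense LPS, 2 were at least 2-fold lower. Cd14, the LPS co-receptor, had a ratio of 0.309 (0.238 to 0.397), and Ly96, which binds LPS beside TLR4, 1.74 (0.977 to 2.97). Of 10 genes of NF-kB signalling and mRNA decay, 7 were at least 2-fold lower, with a median log2 ratio of -1.40. Nfkbia, an inhibitor and target of NF-kB, had a ratio of 0.189 (0.150 to 0.235), Bcl3 was at least 3.64-fold lower against 3 counts, with a ratio of up to 0.349, and Nfkb1 had a ratio of 1.07 (0.754 to 1.48). Of 11 interferon signalling genes, 3 were at least 2-fold lower, with a median of -0.45. Irf7, an interferon-induced transcription factor, had a ratio of 0.0660 (0.00165 to 0.379), Irf8 1.20 (1.02 to 1.40) and Ifngr1 0.916 (0.814 to 1.03).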

How the data were processed

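The authors sequenced Drop-seq libraries of sorted microglia and deposited 1 matrix of raw counts per library (UMIs per gene and barcode), not filtered to cells. STAR, bcl2fastq 2.0 and the builds mm9 and mm10 are listed in the submitters' notes without roles, and whether counting used the strand is not given in the sources used here. The ligands and gene lists were chosen with earlier results of these data known. Each library held 9999 barcodes, and missing values were read as 0. Counts were summed over cells and given per 1e6 UMIs. Exact Poisson, conditional binomial and Clopper-Pearson intervals (95%) were computed with scipy 1.17.1 in Python 3.11.15. Log2 ratios used a prior count of 0.5, bounds a floor of 3 counts, and 1 seeded thinning gave equal depth. No test was made, because cells of 1 library are not replicates. No doublet caller was run, and leaving out the 5% deepest cells was tried instead. Named genes were the ligands, the other CXC ligands, receptors and proteases, and from each other list the gene with most UMIs and those with the lowest and highest ratio. Calculations were tested on simulated data.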

Additional observations from a re-analysis of the deposited data

Results flagged for a closer look

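Ligand UMIs were also found outside the cells, in the 4270 WT LPS barcodes of at most 100 UMIs, which held 315748 UMIs. There were 36 UMIs of Cxcl16, 13 of Cxcl13, 12 of Cxcl10 and 4 of Cxcl2, each above the limit of 3 counts that a count of 0 allows. The level of Cxcl13 was 41.2 CPM in these barcodes and 51.8 CPM in the cells. The level of Cxcl10 was 38.0 CPM and 80.4 CPM, that of Cxcl2 12.7 and 30.2 CPM, and that of Cxcl16 114 and 214.7 CPM. In KO LPS the same barcodes held 2 UMIs of Cxcl16 and 0 of the other 3 ligands. The source of these molecules was not tested.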

How the results depend on the processing

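No paired analysis was possible because the labels give no replicate numbers and each genotype had 1 library. The levels of Cxcl10, Cxcl2 and Cxcl16 were lower in KO LPS under each alternative other than that of Y-linked cells, taking 3 counts where KO LPS had 0 and leaving aside alternatives that give no bound. With cells of at least 1000 UMIs the bounds were 2.48-fold for Cxcl2, 7.88-fold for Cxcl10 and 5.29-fold for Cxcl13. Without the 3 cells with most UMIs they were 1.55, 6.28 and 1.49-fold, and in Xist-positive cells Cxcl13 was at 1.18-fold, where no lower level was shown against the exact upper limit. KO LPS had only 12 Y-linked cells, with 0 UMIs of these 4 ligands, so that none had a bound there. The log2 ratio of Cxcl16 in them, -2.48 against -3.66, rests on the prior count, and 3 counts would be 208 CPM against 192 CPM in WT LPS, so that no lower level was shown. The mean of single-cell CPM and a prior count of 2 give no bound for Cxcl10, Cxcl13 and Cxcl2. The log2 ratio of Cxcl14, 0.80, ranged from -1.53 in Xist-positive to 2.83 in Y-linked cells, with 0 KO LPS UMIs in both, and changed sign. The share of cells with Cxcl10, 1.61% at 500 UMIs, was 3.51% at 1000 UMIs and 3.64% without thinning, 2.65% in Xist-positive and 3.59% in Y-linked cells. The share with Cxcl16, 8.55%, was 18.3%, 20.8% and, in cells of at least 1000 UMIs, 10.3%. The share with Cxcl13, 0.841%, was 0.354% in Xist-positive cells. Counting at least 2 UMIs, chosen after seeing the data, gave 0.561% for Cxcl10, 0.210% for Cxcl13 and 0.841% for Cxcl16. The causes of these differences were not tested, apart from depth, which thinning sets by construction. The share of Cxcl13-positive cells with Cxcl10 ranged from 0 to 10%, within the interval of the main value. The family and pathway lists had 18 genes at least 2-fold lower, and 17 to 19 under the alternatives. Leaving out barcodes with an unread base, also chosen after seeing the data, moved no bound or log2 ratio beyond its interval. Merging barcodes 1 mismatch apart, likewise, cannot change library sums, and it moved no share beyond its interval. Cells called against the ambient profile, 484 in KO LPS and 1999 in WT LPS, moved no bound, log2 ratio or share beyond its interval.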
